A study of Mus musculus with 6 samples.

Results

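The 33 genes described here were taken as markers of 2 kinds of cell that lie beneath the intestinal epithelium. Some of them, such as Mylk and Vim, are also expressed in other cells. The smooth muscle group has 13 genes (Acta2, Myh11, Tagln, Des, Cnn1, Actg2, Mylk, Myl9, Lmod1, Synpo2, Smtn, Cald1 and Tpm2). The matrix and fibroblast group has 20 genes (Col1a1, Col1a2, Col3a1, Col4a1, Col4a2, Col5a1, Col6a1, Col6a2, Col6a3, Dcn, Lum, Fbln1, Fn1, Sparc, Pdgfra, Pdgfrb, Vim, Mgp, Bgn and Fstl1). They were chosen by symbol as gauges of non-epithelial RNA in epithelial preparations, and each was found once among the 54446 genes of the deposited count table.

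Epithelial cells of the mouse small intestine were profiled by RNA sequencing in 3 control animals, which carried floxed Prkci on both alleles, and in 3 co-housed knockout animals, which carried the same floxed alleles and a Villin-CRE transgene. Prkci encodes an atypical protein kinase C. Villin drives expression in intestinal epithelium, so muscle, fibroblasts and other cells of the gut wall in the knockouts are not expected to recombine the gene. The animals were 3 to 4 months old, and epithelium was loosened from segments of 10 cm with 30 mM EDTA and 5 mM DTT. The sample titles name the jejunum and the series text names jejunum and ileum. According to the labels, carry-over of mesenchyme was followed on western blots by comparing keratin with vimentin. All 6 samples were labelled enterocyte.

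Smooth muscle contracts when a calcium-activated kinase phosphorylates myosin regulatory light chain, which lets smooth muscle myosin pull on actin filaments that carry tropomyosin, calponin and caldesmon. In the gut it forms the outer muscle coat, the thin muscularis mucosae and strands that reach into the villi. Fibroblasts of the lamina propria and submucosa secrete the collagens, proteoglycans and glycoproteins on which the epithelium rests. RNA of either cell type in an epithelial preparation can come from tissue that detaches with the epithelium. In bulk RNA, fewer cells of a type and less RNA per cell cannot be told apart.

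The 6 libraries held 18972906 to 26687856 counts, and 15068 genes had enough counts to be tested. Levels are given as CPM, counts per 1000000 counts of the tested genes after trimmed-mean scaling. The knockout group was compared with the control group by edgeR's quasi-likelihood F test, with Benjamini-Hochberg adjustment over all tested genes and a threshold of 0.05. Prkci was at 44.0 to 46.9 CPM in the controls and at 21.5, 14.6 and 21.4 CPM in knockouts 1, 2 and 3 (edgeR adjusted p = 0.0719). The 8 epithelial markers summed to 10724 to 11200 CPM in the controls and 11748 to 13520 CPM in the knockouts, with Vil1 (villin) the most abundant at 3122 to 3178 and 3131 to 3422 CPM. Levels of Xist and Ddx3y went against the sex that the series text gives for 3 of the 6 animals (control 2, control 3 and knockout 3). A ribosomal RNA locus took 2.16% to 2.91% of the counts in the controls and 4.89% to 5.91% in the knockouts, and its part in the results below was not tested.

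Most of the 33 genes were low in the controls and in knockout 2 and higher in knockouts 1 and 3. Of the 13 contractile genes, 12 were higher in knockout 3 than in knockout 1, and Smtn was lower. The difference was beyond counting error for 9 of them, and within it for Mylk, Synpo2, Cald1 and Smtn. All 9 collagen genes were highest in knockout 1, and knockout 2 lay near the controls for most members of both groups. By edgeR, none of the 27 members that could be tested passed the threshold, against 0.0531% of all tested genes called higher and 0.00664% called lower. At an unadjusted p under 0.05, 6 of the 9 tested muscle members and 1 of the 18 tested matrix members were higher in the knockouts (9.32% of all tested genes), and 1 matrix member was lower (7.09% of all tested genes). The median log2 fold change was 2.81 over the tested muscle members, 1.85 over the tested matrix members and 0.01 over all tested genes. A member with few counts in the controls entered the test only through the libraries in which it was high, so these medians describe the members that passed the count filter. The 6 members that did not pass it were Cnn1, Actg2, Myl9, Lmod1, Lum and Mgp.

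Whether members were called depended on the tool and on single libraries. DESeq2 called 5 muscle members higher (Myh11, Tagln, Des, Synpo2 and Cald1) and, of the matrix members, Vim higher and Fbln1 lower, against 3.62% of tested genes called higher and 1.94% called lower. Limma-voom called 0 members, against 0.0265% of genes called higher and 0.00664% lower. At an unadjusted p under 0.05 it had 1 of 9 tested muscle and 2 of 18 tested matrix members, against 16.8% of all tested genes. Without a filter on low counts edgeR called Cald1 alone (0.694% of genes higher and 0.312% lower). Without knockout 1 edgeR called Cald1 and Vim higher and Fbln1 and Fn1 lower, beside 10.0% of genes called higher and 7.44% called lower. Without knockout 2 it called Cald1 (0.0644% of genes higher and 0.0193% lower).

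**Figure D1:**
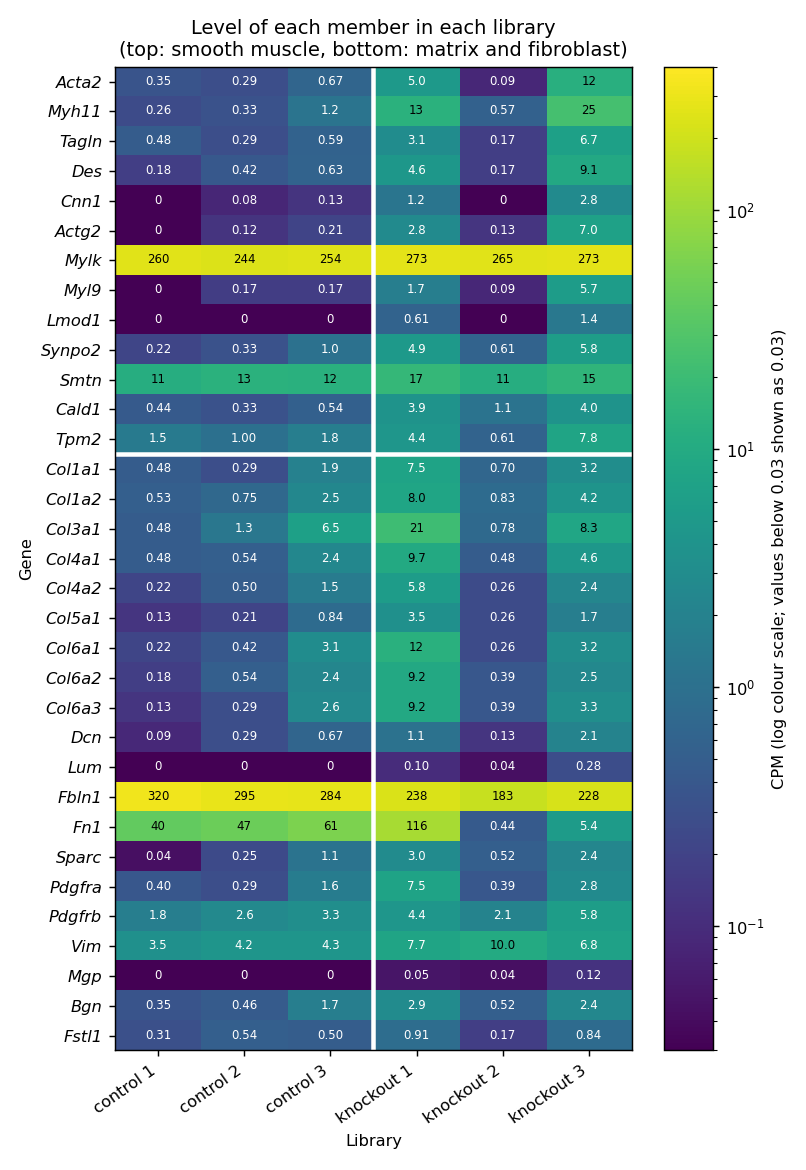
Level of each of the 33 genes (vertical axis) in each of the 6 libraries (horizontal axis), in CPM on a logarithmic colour scale with the value printed in each cell; the white lines part muscle from matrix genes and controls from knockouts. Most genes are dark in the controls and in knockout 2 and brighter in knockouts 1 and 3, while Mylk and Fbln1 are bright in every library.

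Myh11, the heavy chain of smooth muscle myosin and the marker that defines the cell type (chr16:14194535-14291372, minus strand, mm10), was at 0.264, 0.333 and 1.17 CPM in controls 1, 2 and 3. In knockouts 1, 2 and 3 it was at 12.8, 0.566 and 24.6 CPM. Knockout 2 lay between control 2 and control 3, so the groups overlapped. The log2 fold change was 4.41 (SE 1.24; edgeR adjusted p = 0.179), the largest among the tested members.

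Acta2, smooth muscle alpha actin (chr19:34241090-34255336, minus strand), was at 0.352, 0.292 and 0.670 CPM in the controls and at 4.96, 0.0871 and 12.1 CPM in the knockouts. Its level in knockout 2, which rested on 2 counts, was the lowest of the 6 libraries. The log2 fold change was 3.69 (SE 1.27; edgeR adjusted p = 0.232). Des encodes desmin, the intermediate filament of muscle, and was at 0.176, 0.417 and 0.628 CPM in the controls against 4.60, 0.174 and 9.13 CPM in the knockouts. Tagln encodes the actin-binding protein transgelin, and its levels were 0.484, 0.292 and 0.586 CPM in the controls and 3.09, 0.174 and 6.73 CPM in the knockouts. For both, knockout 2 was below every control and knockout 3 was above knockout 1. Tagln shares its place in the genome with part of Pcsk7, which had 9327 counts over the 6 libraries, and whether the counting used strand is not given in the sources used here.

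Members with few counts had the same order of libraries. Actg2, the gamma actin of enteric smooth muscle, had 0, 3 and 5 counts in the controls and 55, 3 and 174 counts in the knockouts. Myl9, a myosin regulatory light chain, had 0, 4 and 4 counts against 34, 2 and 143. Cnn1, the calponin of differentiated smooth muscle, had 0, 2 and 3 counts against 24, 0 and 70. Lmod1, a leiomodin that nucleates actin filaments, had no count in any control or in knockout 2, and 12 and 34 counts in knockouts 1 and 3. Taking 3 counts over the control group as the limit that 0 counts allow, the pooled knockout level of Lmod1 was 16-fold that limit. This value allows for counting error in the controls and not in the knockouts, and it rests on knockouts 1 and 3. All 4 genes were thus close to the limit of detection in 4 libraries.

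The members that bind actin filaments were less alike. Synpo2, a synaptopodin of muscle Z-discs and dense bodies, was at 0.22, 0.333 and 1.05 CPM in the controls and at 4.91, 0.61 and 5.85 CPM in the knockouts, with knockout 2 inside the range of the controls. Tpm2, a tropomyosin, was at 1.5, 1.00 and 1.76 CPM in the controls and at 4.40, 0.61 and 7.81 CPM in the knockouts. Cald1 encodes caldesmon, which restrains actomyosin, and was at 0.44, 0.333 and 0.544 CPM in the controls and at 3.95, 1.13 and 3.96 CPM in the knockouts. It was the low-level muscle member whose groups did not overlap, since knockout 2 was also above every control. The log2 fold change of Cald1 was 2.76 (SE 0.54; edgeR adjusted p = 0.113), the lowest adjusted p among the members. Without knockout 1 its adjusted p was 0.0234, and without knockout 2 it was 0.0405, within a range of 0.000265 to 0.426 over the alternatives run.

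Mylk and Smtn were present at similar levels in all libraries. Mylk, myosin light chain kinase, which muscle shares with epithelium, was at 260.3, 244 and 254 CPM in the controls and at 273, 265 and 273 CPM in the knockouts. The knockouts were all above the controls, by a log2 fold change of 0.10 (SE 0.10; edgeR adjusted p = 0.630), and with library totals in place of trimmed-mean scaling the sign turned (-0.0092). Smtn, which encodes the actin-associated protein smoothelin, was at 11.1, 12.9 and 12.4 CPM in the controls and at 16.5, 11.2 and 15.1 CPM in the knockouts, with knockout 2 among the controls. Divided by exon length to compare genes, Mylk averaged 22.4 RPKM in the controls, against 2.77 for Smtn and 0.487 for Tpm2. In knockout 3 Mylk was at 24.3 RPKM, Acta2 at 5.49, Myl9 at 4.93, Actg2 at 4.48 and Myh11 at 3.24. Per exon length, the mean level of Mylk in the controls therefore exceeded that of each other muscle member in any of the 6 libraries.

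Counted over the whole muscle group, 13 of 13 members were above every control in knockout 1, 2 of 13 in knockout 2 and 13 of 13 in knockout 3. Over all tested genes the shares were 31.0%, 35.8% and 33%. The 2 members above every control in knockout 2 were Mylk and Cald1, and these were also the muscle members higher in all 3 knockouts (10.0% of all tested genes were). Knockout 2 was the lowest knockout library for all 13 members. Among the controls, control 3 was the highest for 10 of 13 members.

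Contractile genes are widely bound by serum response factor at the CArG box, a motif of 10 letters that begins with CC, ends with GG and has 6 letters of A or T between, and that reads the same on both strands. The promoters below show where this motif lies in 2 muscle members, Myl9 and Acta2, that were low in the controls and in knockout 2 and higher in knockouts 1 and 3. Sequences are from RefSeq on GRCm38.p6, run from 250 bases before to 50 after the transcription start, and carry the boxes in capitals. Myl9 lies at chr2:156775214-156775513 on the plus strand, and Acta2 at chr19:34255324-34255623 on the minus strand.
Myl9: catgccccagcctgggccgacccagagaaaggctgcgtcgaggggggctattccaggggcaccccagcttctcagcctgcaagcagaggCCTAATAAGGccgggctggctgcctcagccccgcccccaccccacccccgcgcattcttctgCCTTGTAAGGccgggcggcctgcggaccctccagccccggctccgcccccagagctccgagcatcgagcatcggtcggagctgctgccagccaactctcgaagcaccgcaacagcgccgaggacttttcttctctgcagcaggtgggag
Acta2: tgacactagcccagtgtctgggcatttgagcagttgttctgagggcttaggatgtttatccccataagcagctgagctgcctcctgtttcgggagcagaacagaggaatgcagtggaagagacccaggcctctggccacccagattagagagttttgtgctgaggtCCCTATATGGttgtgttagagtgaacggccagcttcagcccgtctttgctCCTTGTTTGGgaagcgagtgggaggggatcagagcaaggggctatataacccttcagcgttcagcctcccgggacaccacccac
The upstream box of Myl9 (CCTAATAAGG, first base at -161 from the start) matched the motif exactly. The other Myl9 box and both Acta2 boxes, among them CCCTATATGG at -84, had 1 letter other than A or T in the centre. The looser rule was chosen after the exact search had been seen. The exact motif stood in 1 of 11 promoters available for the muscle members (9.09%), in 0 of 16 for the matrix members and in 1.63% of 32851 promoters in the table. With 1 other base allowed, it stood in 2 of 11 muscle promoters (18.2%), in 2 of 16 matrix promoters (12.5%; Col1a2 and Col6a3) and in 9.98% of the table. In 24 promoters of other contractile genes it stood in 4 exactly (16.7%, in Ldb3, Srf and Vcl) and in 8 with 1 other base (33.3%). Mean levels in controls and knockouts were 110 and 116 CPM for Ldb3, 25.4 and 31.7 CPM for Srf and 126 and 126 CPM for Vcl. These genes were named after their values were seen. A match describes letters in this window and not binding, and its relation to the levels was not tested.

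The fibrillar collagens, which form the tensile fibres of connective tissue, had a different order of libraries. Col1a1, the fibroblast marker (chr11:94936224-94953042, plus strand), was at 0.484, 0.292 and 1.93 CPM in the controls and at 7.54, 0.697 and 3.20 CPM in the knockouts. Control 3 was above knockout 2, and knockout 1 was the highest library. The log2 fold change was 2.06 (SE 0.94; edgeR adjusted p = 0.331). Col3a1, the collagen of reticular fibres, was at 0.484, 1.29 and 6.53 CPM in the controls and at 20.6, 0.784 and 8.33 CPM in the knockouts. Here control 3 nearly reached knockout 3, and the log2 fold change of 1.83 (edgeR adjusted p = 0.465) became 3.46 without control 3 and 0.72 without knockout 1. Col1a2, the partner chain of Col1a1, ranged from 0.528 to 2.47 CPM in the controls and was at 8.04, 0.828 and 4.16 CPM in the knockouts. Col5a1, a chain of the collagen that sets fibril diameter, ranged from 0.132 to 0.837 CPM and was at 3.54, 0.261 and 1.72 CPM. Summed over these 4 genes, fibrillar collagen was at 1.63, 2.54 and 11.8 CPM in the controls and at 39.7, 2.57 and 17.4 CPM in the knockouts.

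Collagen VI forms beaded filaments around cells of the interstitium, and its 3 chains were low in controls 1 and 2 and in knockout 2. Their sum was 0.528, 1.25 and 8.08 CPM in controls 1, 2 and 3 and 30.7, 1.05 and 8.97 CPM in knockouts 1, 2 and 3. Control 3 and knockout 3 were thus alike, with 95% counting intervals of 6.98 to 9.30 and 7.83 to 10.2 CPM, and knockout 1 stood apart. Col6a1 was at 12.2 CPM in knockout 1, and Col6a2 and Col6a3 were each at 9.21 CPM. The count ratio of Col6a1 to Col6a2 was 1.30, 1.33 and 1.29 in control 3, knockout 1 and knockout 3, the libraries in which both genes had more than 50 counts. The ratio of Col6a1 to Col6a3 was 1.19, 1.33 and 0.976 in the same libraries, and that of Col1a1 to Col1a2 was 0.780, 0.937 and 0.769. The 95% counting intervals of each of these ratios overlapped between the 3 libraries.

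Collagen IV is the network collagen of basement membranes. Its chains Col4a1 (chr8:11198423-11312826, minus strand) and Col4a2 (chr8:11312805-11449287, plus strand) lie head to head, and their annotated spans overlap by 22 bases. The promoter of Col4a2 is shown because it is part of the shared region from which both genes start. It lies at chr8:11312555-11312854 on the plus strand (RefSeq, GRCm38.p6), and capitals mark the 78 bases that also belong to the Col4a1 promoter.
Col4a2: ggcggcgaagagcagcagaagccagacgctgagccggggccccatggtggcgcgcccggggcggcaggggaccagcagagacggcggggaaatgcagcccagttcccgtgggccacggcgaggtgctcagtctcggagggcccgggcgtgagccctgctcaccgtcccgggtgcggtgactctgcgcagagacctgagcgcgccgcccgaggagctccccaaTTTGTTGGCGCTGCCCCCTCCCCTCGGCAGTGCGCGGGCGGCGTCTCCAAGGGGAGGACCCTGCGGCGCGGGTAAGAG
The window had a G and C content of 73.7%. Summed over both genes, collagen IV was at 0.704, 1.04 and 3.98 CPM in the controls and at 15.5, 0.741 and 6.97 CPM in the knockouts. The count ratio of Col4a1 to Col4a2 was 1.57 in control 3, 1.66 in knockout 1 and 1.95 in knockout 3, with overlapping counting intervals. The pair followed the order of the fibrillar collagens.

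Among the proteoglycans and matrix glycoproteins, Bgn (biglycan) was at 0.352, 0.458 and 1.72 CPM in the controls and at 2.88, 0.523 and 2.44 CPM in the knockouts. Sparc, a collagen-binding glycoprotein, was at 0.044, 0.25 and 1.13 CPM in the controls and at 2.98, 0.523 and 2.36 CPM in the knockouts. Dcn, the collagen-binding proteoglycan decorin, was at 0.088, 0.292 and 0.670 CPM in the controls and at 1.06, 0.131 and 2.08 CPM in the knockouts. Unlike the collagens, Dcn was higher in knockout 3 than in knockout 1. Fstl1, a secreted follistatin-like protein, had 7 to 13 counts in the controls and 18, 4 and 21 in the knockouts. Lum (lumican, another collagen-binding proteoglycan) and Mgp (matrix Gla protein, an inhibitor of calcification) had no count in any control. In knockouts 1, 2 and 3 Lum had 2, 1 and 7 counts and Mgp had 1, 1 and 3, too few for a comparison.

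The receptors that mark mesenchymal cells split between the patterns. Pdgfra, the receptor of fibroblasts and of the signalling cells under the epithelium, was at 0.396, 0.292 and 1.59 CPM in the controls and at 7.54, 0.392 and 2.84 CPM in the knockouts, the order of the collagens. Pdgfrb, the related receptor of pericytes and muscle, was at 1.76, 2.58 and 3.31 CPM in the controls and at 4.40, 2.09 and 5.85 CPM in the knockouts. Its highest library was knockout 3, and the ratio of knockout 3 to knockout 1 was 1.33 (95% counting interval 1.01 to 1.75) for Pdgfrb against 0.377 (0.280 to 0.504) for Pdgfra.

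**Figure D2:**
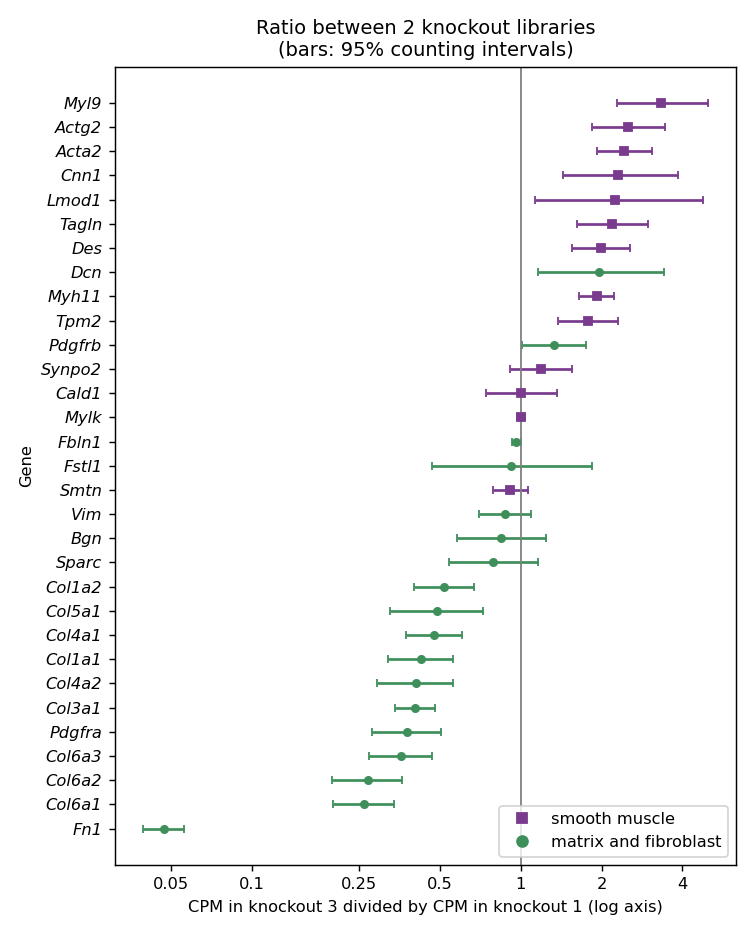
CPM in knockout 3 divided by CPM in knockout 1 (horizontal logarithmic axis) for the 31 members with at least 20 counts over these libraries (vertical axis); squares are muscle genes, circles matrix genes, and bars 95% counting intervals. Most muscle genes lie right of 1, the 9 collagen genes lie left of it, and Fn1 is far to the left at 0.047.

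The contrast between knockouts 1 and 3 ran through both groups. Of the 13 muscle members, 12 were higher in knockout 3 than in knockout 1, and of the 20 matrix members, 16 were lower. The median ratio of knockout 3 to knockout 1 was 1.98 over the muscle members, 0.502 over the matrix members and 0.988 over all tested genes. The 95% counting interval lay above 1 for 9 muscle members and for the matrix members Dcn and Pdgfrb. It lay below 1 for 12 matrix members, which were the 9 collagen genes, Fn1, Pdgfra and Fbln1, and for no muscle member. For Fbln1 the ratio was close to 1 at 0.961. The ratio of Myh11 to Col3a1 counts was 0.624 in knockout 1 (0.531 to 0.732) and 2.96 in knockout 3 (2.52 to 3.48). These ratios compare 2 libraries, one animal each, and have no replicate. By their Xist and Ddx3y levels, knockout 1 was male and knockout 3 female.

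Of the 20 matrix members, 19 were above every control in knockout 1, 3 in knockout 2 and 18 in knockout 3. The 3 in knockout 2 were Vim, Lum and Mgp, the last 2 by 1 count. These 3 were higher in all 3 knockouts (10.0% of all tested genes were). Knockout 2 was the lowest knockout library for 19 of the 20. Control 3 was the highest control for 16 of the 20 members, and its median ratio to the mean of controls 1 and 2 was 4.46, against 2.05 over the muscle members. Control 3 thus differed from the other controls more in matrix than in muscle members.

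The sums show these differences in a single pair of values per library. Members at 10 CPM or more in the controls (Mylk, Smtn, Fbln1 and Fn1) were left out, a choice made after the data were seen. The other 11 muscle members summed to 3.43, 3.38 and 6.91 CPM in the controls and to 45.1, 3.57 and 87.0 CPM in the knockouts. The other 18 matrix members summed to 9.28, 13.5 and 37.0 CPM in the controls and to 114, 18.3 and 56.9 CPM in the knockouts. Muscle divided by matrix was 0.370, 0.251 and 0.187 in the controls and 0.397, 0.196 and 1.53 in the knockouts. Of the 6 libraries, muscle exceeded matrix in knockout 3 alone when these 4 genes were left out. With all members summed, muscle was at 260 to 275 CPM in the controls and at 335, 280 and 375 CPM in the knockouts, while matrix was at 356 to 382 CPM in the controls and at 467, 201 and 291 CPM in the knockouts. On these full sums muscle exceeded matrix in knockout 2 as well as in knockout 3. Mylk made up most of the muscle total in every library, and Fbln1 alone or with Fn1 most of the matrix total.

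**Figure D3:**
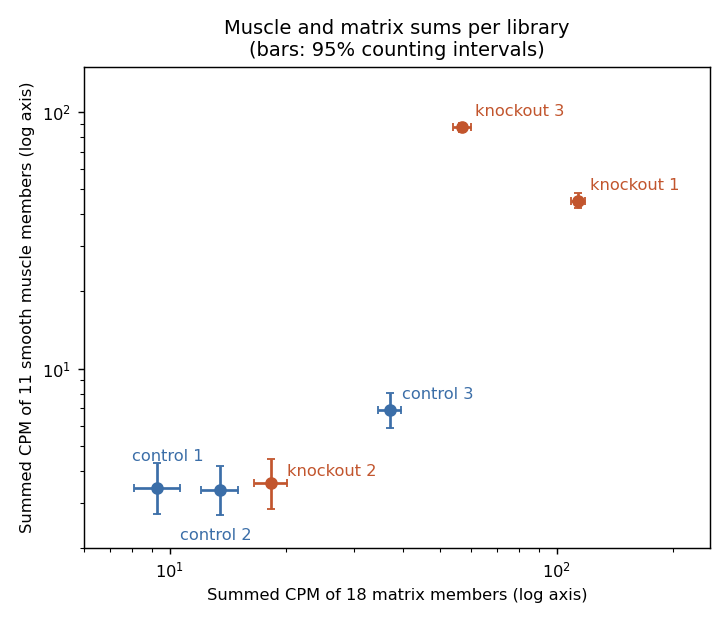
Summed CPM of the 11 muscle members (vertical logarithmic axis) against that of the 18 matrix members (horizontal logarithmic axis) in each library, leaving out members at 10 CPM or more in the controls; bars are 95% counting intervals. Controls 1 and 2 and knockout 2 lie together at the lower left, control 3 is displaced toward matrix, and knockouts 1 and 3 are high on both axes at 114 and 56.9 CPM of matrix.

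Fn1 and Fbln1 were the matrix members at 10 CPM or more in the controls. Fn1, fibronectin, which links cells to matrix through integrins, was at 40.2, 47.0 and 60.6 CPM in the controls and at 116, 0.436 and 5.45 CPM in the knockouts. Knockout 1 was above and knockouts 2 and 3 were below every control, with 2292 counts in knockout 1, 10 in knockout 2 and 136 in knockout 3. The log2 fold change was -0.28 (SE 1.37; edgeR adjusted p = 0.934). It depended on single libraries: -4.04 without knockout 1 (edgeR adjusted p = 0.0115), 0.30 without knockout 2 and 0.24 without knockout 3. It also depended on the model over all 6 libraries, with -2.74 when the replicate number was a block (edgeR adjusted p = 0.467) and -3.0 by limma-voom (adjusted p = 0.341). Its adjusted p ranged from 0.0115 to 0.989 over the alternatives run. Fn1 parted from the collagens: it was far higher in the controls than in knockout 2, while Col1a1 was at 0.292 to 1.93 CPM in the controls and at 0.697 CPM in knockout 2.

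Fbln1, fibulin-1, a glycoprotein of basement membranes and elastic fibres, was at 320.2, 295 and 284 CPM in the controls and at 238, 183 and 228 CPM in the knockouts. Every knockout was below every control (11.7% of all tested genes were), and the log2 fold change was -0.47 (SE 0.13; edgeR adjusted p = 0.181). Without knockout 1 the edgeR adjusted p was 0.0276, within a range of 0.0276 to 0.452 over the alternatives run. Per exon length Fbln1 was the most abundant member, with a mean of 68.7 RPKM in the controls.

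Vim, vimentin, the intermediate filament protein of mesenchymal cells and leukocytes and the protein used on the blots, was at 3.48, 4.21 and 4.27 CPM in the controls and at 7.74, 9.98 and 6.77 CPM in the knockouts. Every knockout was above every control (10.0% of all tested genes were). The means were 8.16 ± 1.65 CPM in the knockouts and 3.98 ± 0.44 CPM in the controls (SD, n = 3 each). The log2 fold change was 1.03 (SE 0.21, edgeR adjusted p = 0.116), and without knockout 1 it was 1.07 (edgeR adjusted p = 0.0197). The adjusted p ranged from 0.00154 to 0.426 over the alternatives run. Vim was highest in knockout 2, the knockout library in which Myh11 and Col1a1 were lowest.

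**Figure D4:**
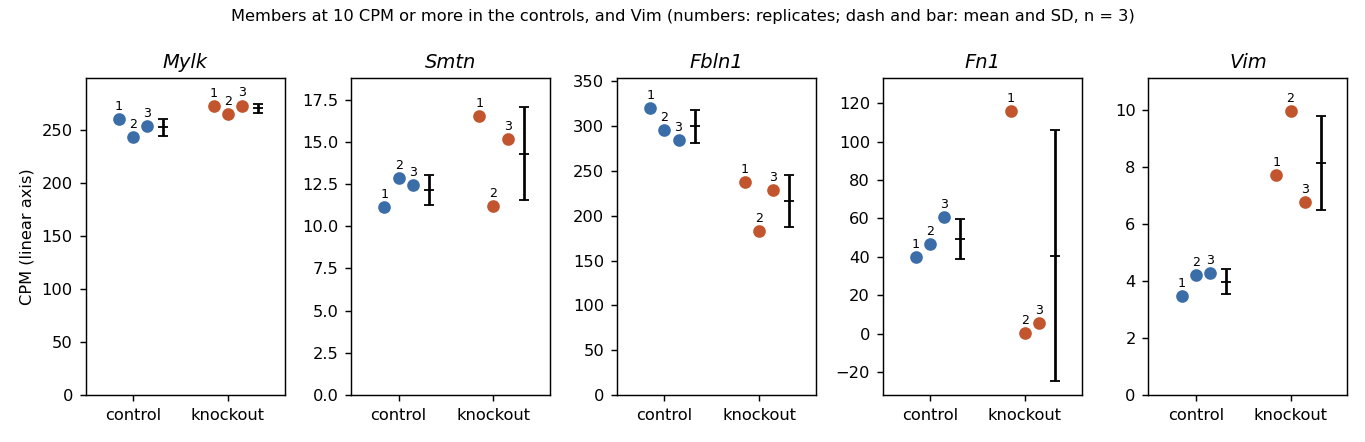
CPM on linear vertical axes of the 4 members at 10 CPM or more in the controls (Mylk, Smtn, Fbln1, Fn1) and of Vim; points are the 6 libraries numbered by replicate, and the dash and bar are the mean and SD of 3. Mylk is level, Fbln1 is lower and Vim higher in every knockout, and Fn1 ranges from 0.436 to 116 CPM among the knockouts.

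Expressed against keratin 8, as the blots set vimentin against keratin, Vim was at 2.48, 2.74 and 2.75 counts per 1000 counts of Krt8 in the controls and at 4.68, 5.62 and 3.92 in the knockouts. Myh11 was at 0.189, 0.217 and 0.754 on the same scale in the controls and at 7.77, 0.319 and 14.3 in the knockouts. Col1a1 was at 0.346, 0.190 and 1.24 in the controls and at 4.56, 0.392 and 1.86 in the knockouts. The order of the libraries by Vim was therefore not the order by Myh11 or by Col1a1. Krt8 itself was at 1399 to 1554 CPM in the controls and at 1655 to 1776 CPM in the knockouts.

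**Figure D5:**
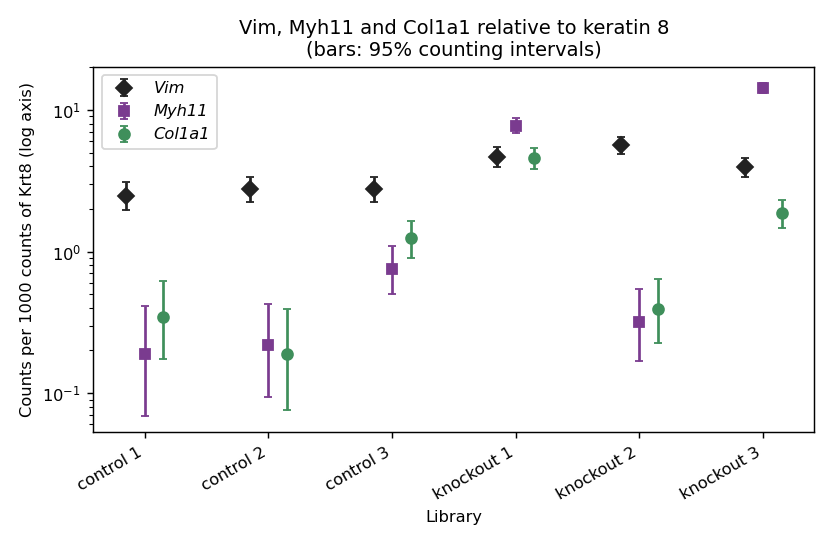
Counts of Vim (diamonds), Myh11 (squares) and Col1a1 (circles) per 1000 counts of Krt8 (vertical logarithmic axis) in each library (horizontal axis), with 95% counting intervals. Vim varies from 2.48 to 5.62 and is highest in knockout 2, while Myh11 varies from 0.189 to 14.3 and Col1a1 from 0.190 to 4.56.

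Markers of neighbouring cell types were set beside the members. The 5 pericyte markers summed to 0.308, 0.542 and 1.30 CPM in the controls and to 6.73, 1.18 and 11.3 CPM in the knockouts. The most abundant, Rgs5, a regulator of G protein signalling, was at 0.088, 0.167 and 0.586 CPM in the controls and at 3.90, 0.0436 and 8.05 CPM in the knockouts, the order of the muscle genes. Of the other pericyte markers, Kcnj8 and Abcc9 were highest in knockout 3, but Cspg4 was highest in knockout 1 and Notch3 in knockout 2. They were named after their values were seen. The 11 markers of stromal subsets summed to 3.58 to 5.61 CPM in the controls and to 23.2, 2.61 and 12.5 CPM in the knockouts. Their most abundant tested gene, Adamdec1, a protease of lamina propria fibroblasts, was at 0.616, 1.00 and 2.80 CPM in the controls and at 13.9, 1.61 and 6.89 CPM in the knockouts, the order of the collagens. Other stromal markers went other ways: Ackr4 was at 2.95, 1.92 and 1.34 CPM in the controls and at 1.37, 0.174 and 0.32 CPM in the knockouts, and Grem1 and Dpt were highest in knockout 3. These 3 were named after their values were seen. The 8 endothelial markers summed to 2.95, 2.63 and 4.56 CPM in the controls and to 16.4, 4.92 and 7.33 CPM in the knockouts. The most abundant, Pecam1, an adhesion molecule of vessels, was at 1.13 to 1.58 CPM in the controls and at 6.48, 1.74 and 1.68 CPM in the knockouts. Tek, of the same list, was at 0.352, 0.375 and 0.544 CPM in the controls. In knockouts 1, 2 and 3 Tek was at 1.57, 2.18 and 3.36 CPM, so its highest library was knockout 3. The other endothelial markers were, like Pecam1, highest in knockout 1. Tek was named after its values were seen. The part of these cell types in the results was not tested.

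Markers of other cell types had mixed orders of libraries. The 5 enteric glia markers summed to 0.208 to 0.376 CPM in the controls and 0.481 to 0.708 CPM in the knockouts. The 3 markers of interstitial cells of Cajal summed to 36.3 to 51.7 CPM in the controls and to 41.4, 16 and 20.5 CPM in the knockouts; the most abundant was Kit, which mast cells and other cells also express. The skeletal muscle genes Myh1 and Myh2 had no count in any library, whereas the skeletal actin Acta1 was at 8.71, 6 and 17.4 CPM in the controls and at 7.89, 30.7 and 49.0 CPM in the knockouts. Myh1 and Myh2 were named after their values were seen.

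The 6 leukocyte markers summed to 84.1 to 107 CPM in the controls and to 187, 143 and 140 CPM in the knockouts. The most abundant, Ptprc, the common leukocyte antigen, was at 76.7, 55.6 and 55.4 CPM in the controls and at 98.9, 79.2 and 65.0 CPM in the knockouts. As for most low-level members, control 3 was the highest control and knockout 2 the lowest knockout for 2 of the 6 leukocyte markers, named after their values were seen. Jchain, of plasma cells, was at 5.02, 7.42 and 19.0 CPM in the controls and at 50.9, 13.3 and 43.1 CPM in the knockouts. Csf1r, of macrophages, was at 0.572, 1.17 and 2.43 CPM in the controls and at 6.93, 2.53 and 3.96 CPM in the knockouts. For the remaining leukocyte markers (Ptprc, Cd3e, Cd79a and Itgam) control 3 was the lowest control. Cd3e was highest in knockout 2, at 42.2 CPM. Cd3e, Cd79a and Itgam were also named after their values were seen. The 4 lymphatic markers summed to 1.98 to 4.19 CPM in the controls and to 3.29, 13.5 and 8.01 CPM in the knockouts, so their highest library was knockout 2, and Lyve1 was the most abundant, at 1.98 to 3.47 CPM in the controls and 2.53, 13.2 and 7.33 CPM in the knockouts. In the enteric neuron list (7 genes) Ret was the most abundant, at 3.26 to 5.10 CPM in the controls and 4.70, 9.54 and 7.85 CPM in the knockouts. Other genes of this list differed from Ret and were named after their values were seen. Snap25 had means of 1.41 CPM in the controls and 1.39 CPM in the knockouts. At few counts, Uchl1 and Prph had lower means and Tubb3 a higher mean in the knockouts. In the mesothelial list (5 genes) Upk1b was at 3.17 to 4.79 CPM in the controls and 2.33, 4.44 and 7.77 CPM in the knockouts. In the adipocyte list (4 genes) Cidec, which enterocytes also express, was at 74.2 to 78.2 CPM in the controls and 124, 66.6 and 81.9 CPM in the knockouts. The part of these cell types in the results was not tested either.

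Other genes of contraction and of matrix gave 1 call. Of 25 further contractile genes, 13 were tested and 1 was called higher. Over all tested genes 0.0531% were called higher and 0.00664% lower. The gene called was Flna, which encodes the actin cross-linking protein filamin A and is expressed in many cell types. Flna was at 9.59, 11.5 and 10.3 CPM in the controls and at 35.1, 29.1 and 43.3 CPM in the knockouts, and it rose by 1.77 on the log2 scale (SE 0.18; edgeR adjusted p = 0.0381). The call was lost with the replicate number as a block (edgeR adjusted p = 0.183), by limma-voom (adjusted p = 0.0560), without any one control (0.174 to 0.317) and without knockout 3 (0.0790), while the log2 fold change stayed between 1.63 and 1.92 over the alternatives run. Its level in knockout 2 was close to that in knockout 1, unlike that of the low-level muscle members. Tpm1, the most abundant of that list, was at 247 to 256 CPM in the controls and at 295, 224 and 254 CPM in the knockouts. Of 26 further interstitial matrix genes, 13 were tested and 0 were called. At an unadjusted edgeR p under 0.05, 5 were higher and 0 lower (9.32% and 7.09% of all tested genes). Thbs1, an adhesive glycoprotein that can activate latent TGF-beta, was at 1.67, 3.33 and 3.06 CPM in the controls and at 6.32, 14.4 and 15.1 CPM in the knockouts (edgeR adjusted p = 0.110).

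Of 21 basement membrane genes other than the Col4a1 and Col4a2 pair, 15 were tested and 0 were called by edgeR. At an unadjusted edgeR p under 0.05, 5 were higher (9.32% of all tested genes). The most abundant, Lama3, a laminin chain made by epithelium, was at 332, 302 and 298 CPM in the controls and at 409, 69.7 and 193 CPM in the knockouts. As for Fn1, knockout 1 was above and knockouts 2 and 3 were below every control. The order among the knockouts was also that of the collagens. Of 16 genes of TGF-beta signalling, the pathway that drives matrix production in fibroblasts, 12 were tested and 0 were called by edgeR. At an unadjusted edgeR p under 0.05, 4 were higher and 1 lower (9.32% and 7.09% of all tested genes). Tgfbi, a secreted target of the pathway, was at 411, 488.5 and 477 CPM in the controls and at 384, 186 and 300.0 CPM in the knockouts (edgeR adjusted p = 0.263). Every knockout was below every control for Tgfbi (11.7% of all tested genes were).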

How the data were processed

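RNA of 6 libraries of intestinal epithelial cells was analysed, 3 per genotype, one per numbered animal per the labels. The authors deposited raw read counts per gene. The submitters' processing notes name STAR 2.5.0a, Trim Galore, bcl2fastq 2.17 and FastQC, and the build mm10. For the counting program, the annotation release and the use of strand, nothing is given in the sources used here. Per the labels' protocols, both poly-A selection and a ribosomal depletion kit were used.

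Groups came from the sample titles. edgeR 4.0.16 (R 4.3.3; TMM scaling, filterByExpr with a minimum count of 10, quasi-likelihood F test, genotype as the sole term, two-sided) was fitted on 15068 of 54446 genes. The adjusted p is Benjamini-Hochberg over all tested genes. An exact permutation test of 3 against 3 libraries cannot give a p below 0.1, so none was used. Intervals are exact at 95% and, like the limit of 3 counts for a count of 0, cover counting error only. RPKM used exon lengths from GENCODE M21, matched on gene ID; its coordinates were those of the deposited table for 31 of 33 members, and Acta2 and Synpo2 had another ID version. Promoters matched 24 of 33 members by symbol. The scripts were tested on simulated data.

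Members and other gene lists were chosen with earlier results of these data known. All 33 members were named, and from each other list the most abundant tested gene and those called; genes named after their values were seen are marked so. Alternatives were 2 other scalings, 2 other filters, DESeq2 1.42.0, limma-voom 3.58.1, the replicate number as a block and leaving out each library. Same-numbered libraries of the 2 groups deviated together, with correlations of 0.117, 0.119 and 0.149 against -0.143 to 0.01 for other pairs. The block fit is therefore given for Fn1, Flna, the group medians and the counts of calls. It also changed the log2 fold changes of other members, for example from 3.69 to 3.12 for Acta2 and from 2.02 to 2.12 for Sparc. The printed fold changes and p-values are otherwise from the fit without it.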

Additional observations from a re-analysis of the deposited data

How the results depend on the processing

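No member was called by edgeR over all 6 libraries, and this count of 0 depends on the processing for both groups. Among muscle members, 1 was called without a filter on low counts (Cald1) and 5 by DESeq2 (Myh11, Tagln, Des, Synpo2 and Cald1). Among matrix members, 2 were called by DESeq2 (Vim higher, adjusted p = 0.00154, and Fbln1 lower, adjusted p = 0.0414), which gave Fn1 no adjusted p. Leaving out 1 library gave 0 to 1 called muscle members (Cald1, without knockout 1 or without knockout 2) and 0 to 3 called matrix members, the 3 being Vim, Fbln1 and Fn1 without knockout 1. Over all genes 9 were called in the full comparison, 16 with library totals, 284 without a filter, 839 by DESeq2 (3.62% higher and 1.94% lower), 5 by limma-voom and 0 with the replicate number as a block. Leaving out 1 library gave 0 to 2700 over all genes, 2700 without knockout 1 (10.0% higher and 7.44% lower) and 0 without knockout 3 or without any one control. The replicate block gave 0 called members in both groups, medians of 2.65 and 1.47, and changed no call of a member. The cause of these differences was not tested.

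The median log2 fold change stayed positive under the alternatives run, from 2.35 to 4.07 over the tested muscle members and from 0.84 to 3.08 over the tested matrix members when 1 library was left out. The mean of the knockouts over the mean of the controls was 1.23 for summed muscle CPM and 9.89 without the members at 10 CPM or more in the controls, and for summed matrix CPM it was 0.867 and 3.16. Of 344 values of single members under the alternatives, 3 reversed in sign: Mylk with library totals (-0.0092), and Fn1 without knockout 2 (0.30) and without knockout 3 (0.24), within a range of -4.04 to 0.30 when 1 library was left out. At an unadjusted edgeR p under 0.05, 12 of 13 muscle and 17 of 18 matrix members passed without knockout 2, against 11.7% of all tested genes. Knockout 2 was the lowest knockout library for 32 of the 33 members, so leaving it out raises these counts by construction. Cnn1, Actg2, Myl9 and Lmod1 entered that test only through their counts in knockouts 1 and 3. No conclusion on the knockout group is drawn from these counts. Most low-level members had under 20 counts in controls 1 and 2, so their levels there carry counting error. The part of this error in the SE of their fold changes was not tested.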
